A study of Mus musculus with 12 samples.

Results

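The genes described here encode receptors of bone morphogenetic proteins (BMPs) and activins, the activin subunits and follistatin: Bmpr1a, Bmpr1b, Bmpr2, Acvr1, Acvr1b, Acvr2a, Acvr2b, Inhba, Inhbb and Fst. They were taken by symbol, with earlier results of these data known, and are 10 of the 24391 gene symbols counted. All 10 were among the 15958 genes that passed the filter on low counts. Their RNA was measured at E13.5 in palatal shelves of C57BL/6 mouse embryos. The shelves grow out of the upper jaw on either side and fuse into the palate.

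The 4 groups were anterior palate under tamoxifen, anterior palate of controls, posterior palate under tamoxifen and posterior palate of controls, with 3 libraries each. Tamoxifen modulates oestrogen receptors, as an agonist or antagonist by tissue, and cleft palate under the drug is the subject of the series. The labels give neither its dose and timing nor what the controls received. They do not tie a library to an embryo or litter, so the spread behind each p-value is that between these samples and may be technical.

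BMPs and activins are secreted dimers of the TGF-beta superfamily. Each binds a complex of type II receptors, which are constitutively active kinases, and type I receptors, which are phosphorylated by the type II receptors and in turn phosphorylate SMAD proteins. BMP receptors act mainly through SMAD1, SMAD5 and SMAD8, activin receptors through SMAD2 and SMAD3, and follistatin binds activin outside the cell and keeps it from its receptors. In the mouse palate, BMP signalling through Bmpr1a is needed for shelf growth, and loss of Inhba or Fst in mice causes palate defects.

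Library totals ranged from 39.4 M to 73.0 M counts, with the second highest at 50.2 M. The labelled regions showed in their markers. The summed level of 4 anterior palate markers was 733 to 870 CPM in tamoxifen anterior libraries and 788 to 1035 CPM in control anterior libraries. In tamoxifen posterior libraries it was 28.6 to 53.2 CPM, and in control posterior libraries 29.2 to 43.7 CPM. CPM are counts scaled by TMM to a common library size.

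Per transcript length, Bmpr1a was the highest of the 10 in every group, and Acvr1 was next. Bmpr1a, a type I BMP receptor, averaged 33.2 CPM per kb in tamoxifen anterior palate and 18.6 CPM per kb in control anterior palate. It averaged 34.0 CPM per kb in tamoxifen posterior palate and 22.6 CPM per kb in control posterior palate. The lowest levels were those of Bmpr1b and Inhbb. Bmpr1b lay between 0.659 CPM per kb in control anterior palate and 2.13 CPM per kb in tamoxifen posterior palate, and Inhbb between 0.886 CPM per kb in tamoxifen anterior palate and 2.57 CPM per kb in control posterior palate. Inhba had rank 4 in both anterior groups, with 13.0 CPM per kb under tamoxifen and 11.6 CPM per kb in controls. In the posterior groups it had rank 8, with 3.21 CPM per kb under tamoxifen and 3.14 CPM per kb in controls.

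**Figure D1:**
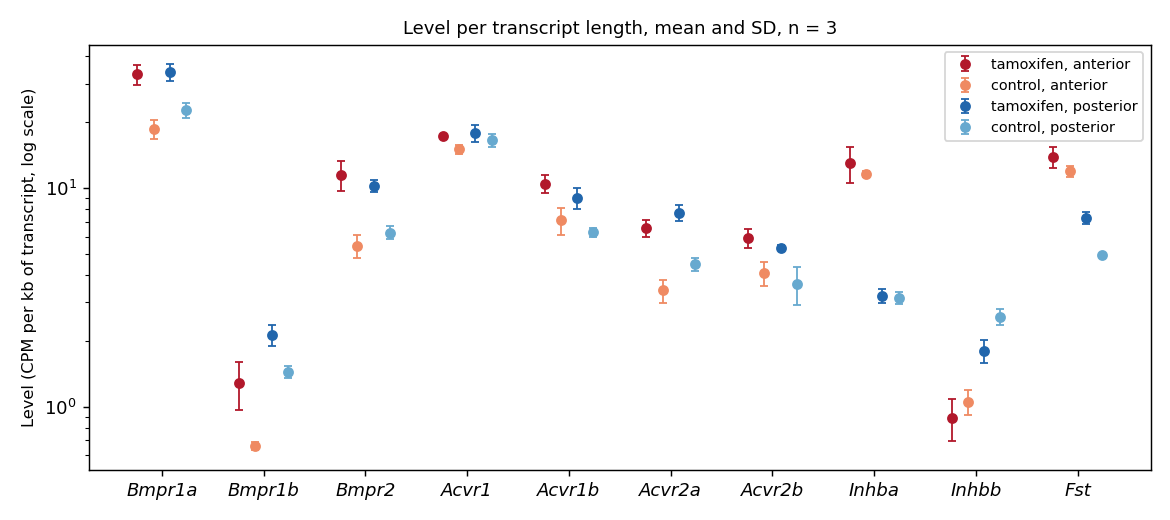
Mean level per kb of transcript (points, log axis) and SD (bars) of each gene in the 4 groups, n = 3 libraries each. Bmpr1a is highest in each group, Inhba and Fst are high in both anterior groups, and Bmpr1b and Inhbb are lowest.

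The ligand subunits and follistatin differed between the parts of the palate. Inhba, which encodes the beta A subunit of activin A, was higher in anterior than in posterior palate, 4.05-fold under tamoxifen and 3.69-fold in controls. Fst, the activin-binding inhibitor, was 1.90-fold higher under tamoxifen and 2.43-fold higher in controls. Inhbb, which encodes the beta B subunit, was 2.02-fold lower under tamoxifen and 2.44-fold lower in controls. In tamoxifen palate 2 of the 10 genes were called higher in the anterior part and 2 lower, at an adjusted p under 0.05. There 17.8% of all genes tested were called (7.6% higher and 10.2% lower), and the groups did not overlap for 5 of the 10 (33.1% of all genes tested). In control palate 2 genes were called higher and 4 lower, where 23.3% of all genes tested were called (10.2% higher and 13.1% lower), and the groups did not overlap for 7 (41.2% of all genes tested).

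Inhba had 71.5, 101 and 77.1 CPM in tamoxifen anterior libraries, against 21.3, 18.7 and 21.6 CPM in tamoxifen posterior libraries. It had 76.4, 72.1 and 73.6 CPM in control anterior libraries, against 21.3, 20.0 and 18.8 CPM in control posterior libraries. All 6 anterior values lay far above all 6 posterior values. The log2 difference was 2.02 under tamoxifen (SE 0.11, adjusted p = 1.3e-09) and 1.89 in controls (SE 0.11, adjusted p = 3.8e-09). In bulk tissue fewer cells of a type and less RNA per cell cannot be told apart.

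Inhbb ran the other way. Under tamoxifen it had 4.54, 2.91 and 3.86 CPM in anterior libraries, against 7.58, 6.80 and 8.59 CPM in posterior libraries. It had 3.89, 4.45 and 5.08 CPM in control anterior libraries, against 11.97, 10.65 and 10.22 CPM in control posterior libraries. Every posterior library exceeded every anterior one in both treatments, and the log2 difference was -1.01 under tamoxifen (SE 0.17, adjusted p = 0.00026) and -1.29 in controls (SE 0.17, adjusted p = 2.2e-05). Within a library, there were 15.7 to 34.6 Inhba counts for each Inhbb count in tamoxifen anterior palate and 14.5 to 19.7 in control anterior palate. The ratio was 2.51 to 2.80 in tamoxifen posterior palate and 1.78 to 1.88 in control posterior palate. These ratios are as counted and carry a length and GC trend described further on. It was fitted in posterior palate as 0.37 for Inhba and -0.12 for Inhbb. With it removed, the log2 changes under tamoxifen were -0.34 for Inhba and -0.40 for Inhbb in posterior palate. In anterior palate they were -0.45 and 0.08.

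The sequences just before the RefSeq start sites of both subunit genes are shown because the genes lay at opposite ends of the palate (GRCm38.p6, 250 bases, read on the gene's strand). A RefSeq promoter was matched for 9 of the 10 genes. Capitals mark matches to 4 motifs, searched on both strands. They are TAATTG, a core of homeodomain sites, CAGAC, a SMAD-binding core, GGCGCC, a GC-rich motif bound by BMP SMADs, and TATAAA, the TATA box. A match on the other strand reads CAATTA for the first, GTCTG for the SMAD core and TTTATA for the TATA box, and no different motifs overlapped.
Inhba (chr13:16011601-16011850, plus strand): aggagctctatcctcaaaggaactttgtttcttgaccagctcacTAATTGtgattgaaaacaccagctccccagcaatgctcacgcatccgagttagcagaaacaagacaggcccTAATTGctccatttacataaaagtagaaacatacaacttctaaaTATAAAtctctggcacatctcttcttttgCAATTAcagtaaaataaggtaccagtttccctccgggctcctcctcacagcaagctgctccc
Inhbb (chr1:119422249-119422498, minus strand): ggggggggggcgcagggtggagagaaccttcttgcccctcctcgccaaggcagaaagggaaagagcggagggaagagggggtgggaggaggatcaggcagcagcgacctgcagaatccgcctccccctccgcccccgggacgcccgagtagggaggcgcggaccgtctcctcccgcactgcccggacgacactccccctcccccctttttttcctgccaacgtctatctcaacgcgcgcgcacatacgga
The Inhba window held 3 TAATTG matches and 1 TATAAA match, and its GC content was 43.2%. The Inhbb window held none of the 4 motifs and had a GC content of 68%. Among 27025 mouse promoter windows of this length, 7.34% held TAATTG, 42.1% held CAGAC, 9.54% held GGCGCC and 13.0% held TATAAA, and the median GC content was 52%.

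Fst followed Inhba in space. It had 43.6, 42.5 and 35.3 CPM in tamoxifen anterior libraries, against 22.9, 20.5 and 20.5 CPM in tamoxifen posterior libraries. It had 34.2, 37.1 and 33.3 CPM in control anterior libraries, against 14.5, 14.2 and 14.3 CPM in control posterior libraries. The anterior values exceeded the posterior ones throughout, by a log2 difference of 0.93 under tamoxifen (SE 0.091, adjusted p = 1e-06) and 1.28 in controls (SE 0.093, adjusted p = 3.7e-08). The count ratio of Inhba to Fst was 1.64 to 2.37 in tamoxifen anterior palate and 1.95 to 2.23 in control anterior palate. In posterior palate it was 0.913 to 1.05 under tamoxifen and 1.31 to 1.46 in controls. As counted, the ratios of the treatments thus overlapped in anterior but not in posterior palate. They carry the length and GC trend described further on, fitted in anterior palate as 0.60 for Inhba and 0.13 for Fst. In posterior palate it was 0.37 and 0.08. With it removed, the anterior log2 change under tamoxifen was -0.45 for Inhba (adjusted p = 0.0015) and 0.08 for Fst (0.44). The posterior change was -0.34 for Inhba (0.027) and 0.48 for Fst (0.001). Anterior Inhba levels then lay apart, at 62.1, 76.8 and 67.5 CPM under tamoxifen against 90.9, 86.6 and 104 CPM in controls. The contrast in ratio overlap between the regions holds only as counted. The difference between the tamoxifen effects of the regions was called for neither gene.

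**Figure D2:**
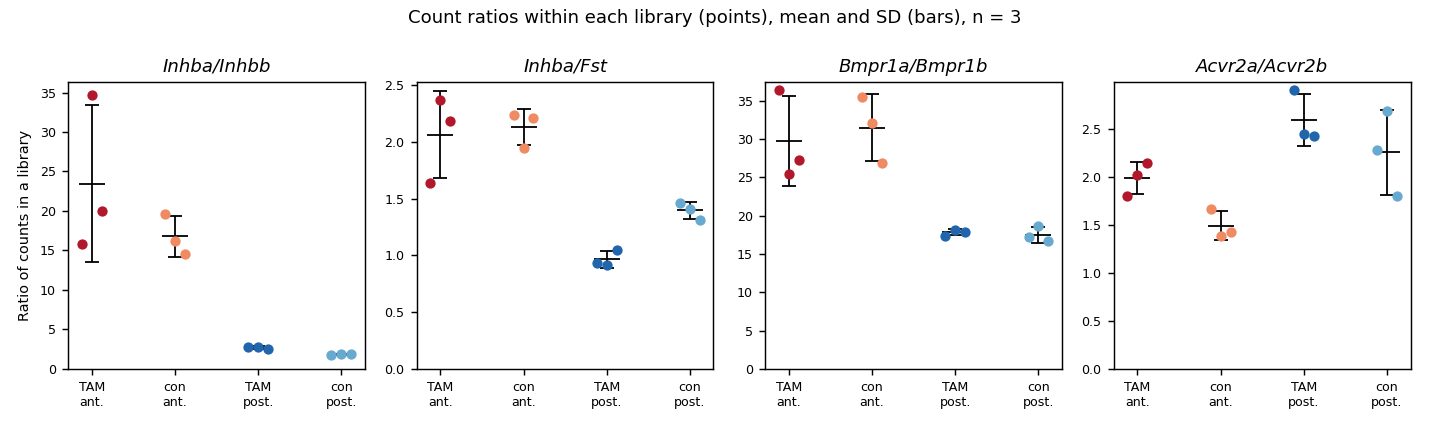
Ratio of the counts of gene pairs within each library (points), with mean and SD (bars), n = 3 libraries per group. Counts are as deposited, without removal of the length and GC trend. Inhba counts exceed Inhbb counts 14.5-fold or more in all anterior libraries and 2.80-fold or less in all posterior ones, and the Inhba to Fst ratio is lowest in tamoxifen posterior palate.

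Among the receptors, Bmpr1b had the strongest regional difference. This type I BMP receptor, known from mice for its role in digit cartilage, had 5.27, 8.64 and 6.61 CPM in tamoxifen anterior libraries, against 12.8, 10.7 and 10.6 CPM in tamoxifen posterior libraries. It had 3.42, 3.46 and 3.70 CPM in control anterior libraries, against 7.21, 7.76 and 8.17 CPM in control posterior libraries. The posterior values were the higher ones in both treatments, by a log2 difference of -0.74 for anterior over posterior under tamoxifen (SE 0.16, adjusted p = 0.0026) and -1.13 in controls (SE 0.17, adjusted p = 8.7e-05). For its close relative Bmpr1a the log2 difference was -0.03 under tamoxifen (95% interval -0.24 to 0.17, adjusted p = 0.85) and -0.29 in controls (SE 0.096, adjusted p = 0.04). Bmpr1a counts exceeded Bmpr1b counts 25.5 to 36.4-fold in tamoxifen anterior palate and 26.9 to 35.5-fold in control anterior palate. In posterior palate the ratio was 17.4 to 18.1 under tamoxifen and 16.6 to 18.7 in controls. For Acvr2a, a type II receptor for activins and BMPs, the log2 difference under tamoxifen was -0.24 (95% interval -0.45 to -0.03, adjusted p = 0.12), and the groups did not overlap. In controls it was 1.32-fold lower in anterior than in posterior palate (log2 -0.40, SE 0.10, adjusted p = 0.0096).

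The promoter windows of the paired type I receptors are shown for their contrast in base composition.
Bmpr1a (chr14:34502547-34502796, minus strand): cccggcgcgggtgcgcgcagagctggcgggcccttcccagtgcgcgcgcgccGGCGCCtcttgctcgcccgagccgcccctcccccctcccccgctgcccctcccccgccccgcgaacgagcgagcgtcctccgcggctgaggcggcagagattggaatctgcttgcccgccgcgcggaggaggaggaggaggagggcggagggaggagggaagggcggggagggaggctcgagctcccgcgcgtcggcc
Bmpr1b (chr3:141982265-141982514, minus strand, the most upstream of 3 listed starts): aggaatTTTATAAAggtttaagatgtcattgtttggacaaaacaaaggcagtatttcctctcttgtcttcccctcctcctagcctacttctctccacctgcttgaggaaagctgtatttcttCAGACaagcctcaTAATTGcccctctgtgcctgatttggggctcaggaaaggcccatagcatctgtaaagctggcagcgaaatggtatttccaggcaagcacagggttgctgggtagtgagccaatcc
The Bmpr1a window had a GC content of 78.8% and 1 GGCGCC match. The Bmpr1b window had a GC content of 46.8%, with 1 TAATTG match, 1 CAGAC match and 2 overlapping matches to the TATA box, 1 on each strand.

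The other receptors showed no call between the regions. Acvr1b was called under tamoxifen in 1 alternative, with the length and GC trend removed and the replicate number as a block (0.31, adjusted p = 0.0356). Under tamoxifen the log2 difference was 0.16 for Bmpr2 (adjusted p = 0.34), -0.05 for Acvr1 (0.71), 0.22 for Acvr1b (0.2) and 0.15 for Acvr2b (0.49). In controls the log2 difference of Bmpr2, the type II receptor that binds BMPs, was -0.20 (95% interval -0.43 to 0.03, adjusted p = 0.19), although the groups did not overlap. It was -0.14 for Acvr1 (-0.31 to 0.03, adjusted p = 0.23), 0.18 for Acvr1b (-0.05 to 0.42, adjusted p = 0.26) and 0.17 for Acvr2b (-0.12 to 0.45, adjusted p = 0.4). Acvr1 encodes the type I receptor ALK2, Acvr1b the activin type I receptor ALK4, and Acvr2b the second activin type II receptor.

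The Bmpr1a and Acvr2a calls in controls depended on single libraries. The Bmpr1a call was lost without control anterior replicate 2 (adjusted p = 0.0595) or 3 (0.172), control posterior replicate 2 (0.171) or 3 (0.103), or tamoxifen posterior replicate 2 (0.0503). The Acvr2a call was lost without control anterior replicate 3 (0.0505) or control posterior replicate 2 (0.0537).

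Other tissue markers moved with the regions. The summed level of 8 epithelial markers was 816 to 1002 CPM in anterior and 486 to 644 CPM in posterior libraries under tamoxifen. In controls it was 810 to 1032 CPM in anterior and 438 to 487 CPM in posterior libraries, and 6 of the 8 were called higher in anterior palate in either treatment. The sum of 8 skeletal muscle markers was 7.85 to 16.3 CPM in anterior and 862 to 1167 CPM in posterior libraries under tamoxifen, and 11.6 to 31.3 CPM in anterior and 701 to 796 CPM in posterior libraries of controls, with 8 of 8 called lower. The sum of 6 cartilage markers was 407 to 505 CPM in anterior and 1460 to 2097 CPM in posterior libraries under tamoxifen, and 498 to 560 CPM in anterior and 2065 to 2269 CPM in posterior libraries of controls, with 6 of 6 called lower. Of 6 palatal mesenchyme markers, 2 were called higher and 3 lower in anterior than in posterior palate in either treatment. The part of these tissues in the differences of Inhba, Inhbb, Fst and the receptors was not tested.

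**Figure D3:**
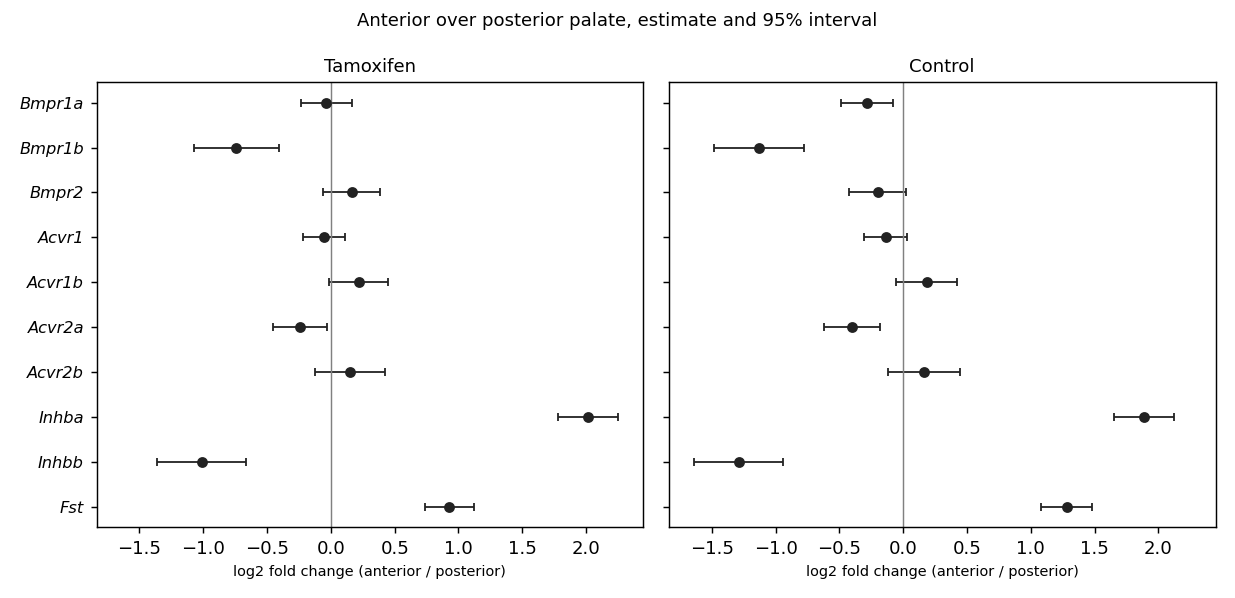
Log2 fold change of anterior over posterior palate (points) with 95% interval (bars) for each gene, under tamoxifen and in controls. Inhba and Fst lie above 0 and Inhbb and Bmpr1b below 0 in both panels.

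Under tamoxifen, transcripts of most receptors were higher in both parts of the palate, and Inhba was not called in either. In anterior palate 7 of the 10 genes were called higher and 0 lower, where 49.7% of all genes tested were called (25.6% higher and 24% lower). The 7 were the receptors, and for them the groups did not overlap, against 56.5% of all genes tested. In posterior palate 7 genes were called higher and 1 lower, where 29% of all genes tested were called (17.3% higher and 11.7% lower), and the groups did not overlap for 8 (48% of all genes tested). The median log2 change of the 10 genes was 0.54 in anterior palate and 0.55 in posterior palate, beside -0.02 and 0.02 over all genes tested. After removal of the length and GC trend these medians were 0.23 and 0.25, beside 0.008 and -0.004 over all genes tested. The treatment comparisons share no libraries, but both come from 1 fit with a shared estimate of the spread. The labels do not tell whether anterior and posterior samples came from the same embryos.

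As counted, Bmpr2 had the largest rise of the 10 in anterior palate, at a log2 change of 1.07, but with the length and GC trend described further on removed it was 0.19, and Acvr2b had the largest (0.76). It had 135, 175 and 134 CPM in tamoxifen anterior libraries, against 74.0, 75.9 and 60.8 CPM in control anterior libraries. It had 140, 132 and 124 CPM in tamoxifen posterior libraries, against 79.1, 86.7 and 76.3 CPM in control posterior libraries. Each tamoxifen library exceeded every control library of its region. The rise was 2.11-fold in anterior palate (log2 1.07, SE 0.11, adjusted p = 2.3e-06) and 1.64-fold in posterior palate (log2 0.71, SE 0.11, adjusted p = 0.00048).

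Acvr2a had 34.9, 40.9 and 35.8 CPM in tamoxifen anterior libraries, against 20.8, 20.5 and 16.6 CPM in control anterior libraries. It had 47.9, 41.6 and 42.1 CPM in tamoxifen posterior libraries, against 23.6, 27.3 and 25.6 CPM in control posterior libraries. Of the 10 genes it was the only one whose 4 groups were ordered without any overlap between neighbours, from tamoxifen posterior through tamoxifen anterior and control posterior to control anterior palate. The rise was 1.92-fold in anterior palate (log2 0.94, SE 0.10, adjusted p = 4.2e-06) and 1.72-fold in posterior palate (log2 0.78, SE 0.10, adjusted p = 0.00026).

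Bmpr1a had 192, 220 and 181 CPM in tamoxifen anterior libraries, against 121, 111 and 99.4 CPM in control anterior libraries. It had 223, 194 and 190 CPM in tamoxifen posterior libraries, against 124, 145 and 136 CPM in control posterior libraries. The groups were apart in both regions. The log2 rise was 0.84 in anterior palate (SE 0.096, adjusted p = 6.4e-06) and 0.59 in posterior palate (SE 0.096, adjusted p = 0.00073).

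Bmpr1b had 5.27, 8.64 and 6.61 CPM in tamoxifen anterior libraries, against 3.42, 3.46 and 3.70 CPM in control anterior libraries. It had 12.8, 10.7 and 10.6 CPM in tamoxifen posterior libraries, against 7.21, 7.76 and 8.17 CPM in control posterior libraries. The groups were apart, though the anterior tamoxifen libraries were spread widely. The log2 rise was 0.95 in anterior palate (SE 0.17, adjusted p = 0.00022) and 0.56 in posterior palate (SE 0.16, adjusted p = 0.015). The posterior call was lost without control posterior replicate 1 (adjusted p = 0.0632) or tamoxifen posterior replicate 1 (0.078).

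The activin receptors Acvr1b and Acvr2b rose in both parts. Acvr1b had 49.1, 48.2 and 41.2 CPM in tamoxifen anterior libraries, against 34.2, 33.9 and 26.1 CPM in control anterior libraries. It had 42.6, 34.6 and 41.8 CPM in tamoxifen posterior libraries, against 29.1, 27.5 and 26.4 CPM in control posterior libraries. Its log2 rise was 0.56 (SE 0.11, adjusted p = 0.00059) in anterior and 0.52 (SE 0.11, adjusted p = 0.0035) in posterior palate, with no overlap between treatments. Acvr2b averaged 18.8 ± 1.83 CPM in tamoxifen anterior palate and 13.0 ± 1.62 CPM in control anterior palate (SD, n = 3 each). It averaged 16.9 ± 0.425 CPM in tamoxifen posterior palate and 11.6 ± 2.27 CPM in control posterior palate. Its log2 rise was 0.53 (SE 0.13, adjusted p = 0.0032) in anterior and 0.55 (SE 0.13, adjusted p = 0.0068) in posterior palate.

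Acvr1 had the smallest estimates among the receptors in both parts. It had 57.1, 56.4 and 56.5 CPM in tamoxifen anterior libraries, against 51.7, 49.8 and 47.0 CPM in control anterior libraries. The rise was 1.15-fold (log2 0.20, SE 0.079, adjusted p = 0.049). This call was lost without any one of control anterior replicates 2 and 3, tamoxifen anterior replicates 1, 2 and 3, control posterior replicates 2 and 3, and tamoxifen posterior replicates 2 and 3, with adjusted p between 0.0506 and 0.143. In posterior palate the change was 0.11 (95% interval -0.06 to 0.28, adjusted p = 0.31). Its highest group mean was 1.19-fold its lowest, and neighbouring groups in the order of levels overlapped.

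Of the ligand subunits and follistatin, Inhbb and Fst were called under tamoxifen, both in posterior palate. For Inhba the log2 change under tamoxifen was 0.17 in anterior palate (95% interval -0.06 to 0.39, adjusted p = 0.2) and 0.03 in posterior palate (-0.20 to 0.27, adjusted p = 0.85). Inhbb averaged 3.77 ± 0.819 CPM in tamoxifen anterior palate and 4.47 ± 0.597 CPM in control anterior palate (SD, n = 3 each), a log2 change of -0.24 (-0.60 to 0.12, adjusted p = 0.26). In posterior palate it fell 1.43-fold (log2 -0.52, SE 0.16, adjusted p = 0.024), the one called fall among the 10. That call was lost without control posterior replicate 1 (adjusted p = 0.103), tamoxifen posterior replicate 1 (0.0649) or tamoxifen posterior replicate 2 (0.0945).

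Fst rose 1.48-fold in posterior palate (log2 0.57, SE 0.093, adjusted p = 0.00071), where its tamoxifen libraries all lay above its closely spaced control libraries. In anterior palate the change was 0.22 (95% interval 0.03 to 0.41, adjusted p = 0.057) and the groups overlapped. The anterior value passed the threshold without control anterior replicate 2 (adjusted p = 0.0423), tamoxifen anterior replicate 3 (0.0116) or tamoxifen posterior replicate 1 (0.045), and with DESeq2 (0.0464). With other libraries left out its adjusted p reached 0.213. With the length and GC trend removed the anterior change was 0.08 (adjusted p = 0.44).

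**Figure D4:**
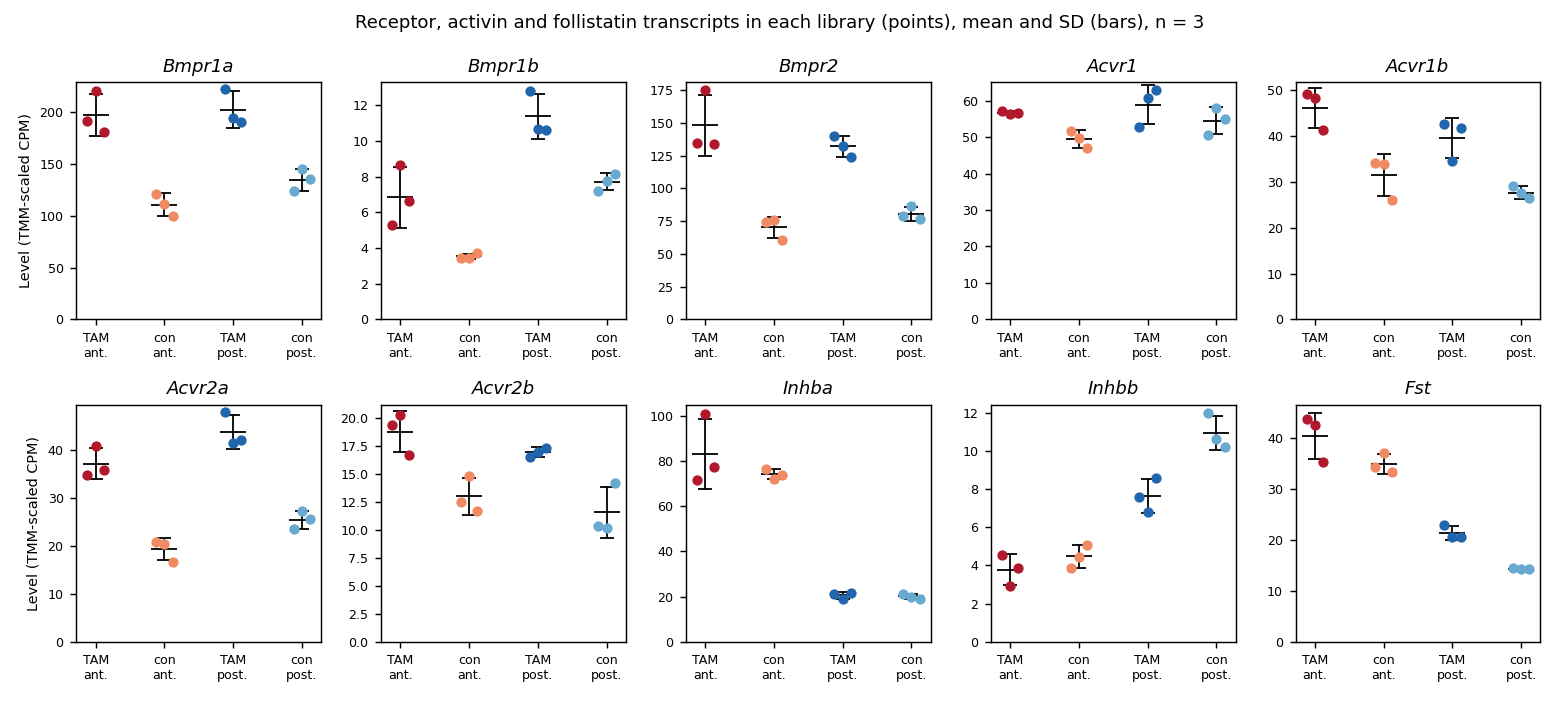
Level of each gene in TMM-scaled CPM in every library (points), with mean and SD (bars), n = 3 libraries per group. Receptor levels are mostly higher under tamoxifen in both parts, whereas Inhba, Inhbb and Fst separate mainly by region.

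No gene of the 15958 was called for a difference between the tamoxifen effects of anterior and posterior palate with edgeR, and none of the 10 members (0% called). At an unadjusted p under 0.05 there were 2110 genes (13.2%), among them Bmpr2 and Fst, and DESeq2 called 174 genes, none of the 10. For Fst the anterior effect minus the posterior effect was -0.35 (95% interval -0.63 to -0.08, adjusted p = 0.3). For Bmpr2 it was 0.36 (0.05 to 0.68, adjusted p = 0.34). For Acvr1b it was 0.04 (-0.29 to 0.37) and for Acvr2b -0.02 (-0.41 to 0.38). Adjusted p for the 8 genes other than Fst and Bmpr2 lay between 0.43 and 0.98.

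Transcript length and base composition moved with treatment over the whole table. The log2 change under tamoxifen had a Spearman correlation across 15839 genes of 0.54 with transcript length in anterior palate and 0.47 in posterior palate. With GC content it was -0.52 in anterior and -0.41 in posterior palate. Genes are not independent replicates, so these are descriptions. Bmpr2, with a longest transcript of 12899 bases and 41.0% GC, lies at percentile 99.2 of length, and Inhba, Bmpr1a, Acvr2a and Bmpr1b are also long, with a GC content of 39.9 to 42.2%. The median tested gene has 3310 bases and 49.99% GC.

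With the trend removed, the receptor changes were smaller for the long AT-rich genes and larger for Acvr2b. In anterior palate Bmpr2 then changed by 0.19 (adjusted p = 0.023), Bmpr1a by 0.27 (0.00065), Acvr2a by 0.40 (9.7e-05) and Bmpr1b by 0.44 (0.029). Acvr1b stayed at 0.56 (0.0017), Acvr2b changed by 0.76 (5e-04), and the call of Acvr1 was lost (0.15, 0.11). In posterior palate Bmpr2 changed by 0.18 (0.046), Bmpr1a by 0.24 (0.0045), Acvr2a by 0.45 (0.00025), Acvr1b by 0.49 (0.0097) and Acvr2b by 0.65 (0.0046). There Fst kept its rise (0.48, adjusted p = 0.001), and the calls of Bmpr1b (0.25, 0.22) and Inhbb (-0.40, 0.058) were lost. In each region 6 members were then called higher and 1 lower, where 32.6% of all genes tested were called in anterior palate and 17.9% in posterior palate.

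Inhba turned direction under this removal. Its log2 change was -0.45 in anterior palate (adjusted p = 0.0015) and -0.34 in posterior palate (adjusted p = 0.027), so it was the member called lower in each region. The fitted length and GC surface at Inhba was 0.60 in anterior and 0.37 in posterior palate on the log2 scale. The regional contrasts of Inhba, Inhbb, Fst and Bmpr1b were called in both fits, while Acvr2a was called between the regions under tamoxifen (-0.28, adjusted p = 0.0015) and the Bmpr1a call in controls was lost (-0.11, adjusted p = 0.13). Between regions, 24.9% of all genes tested were then called under tamoxifen and 27.1% in controls. Which part of the treatment differences goes with RNA of different length or composition was not tested.

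**Figure D5:**
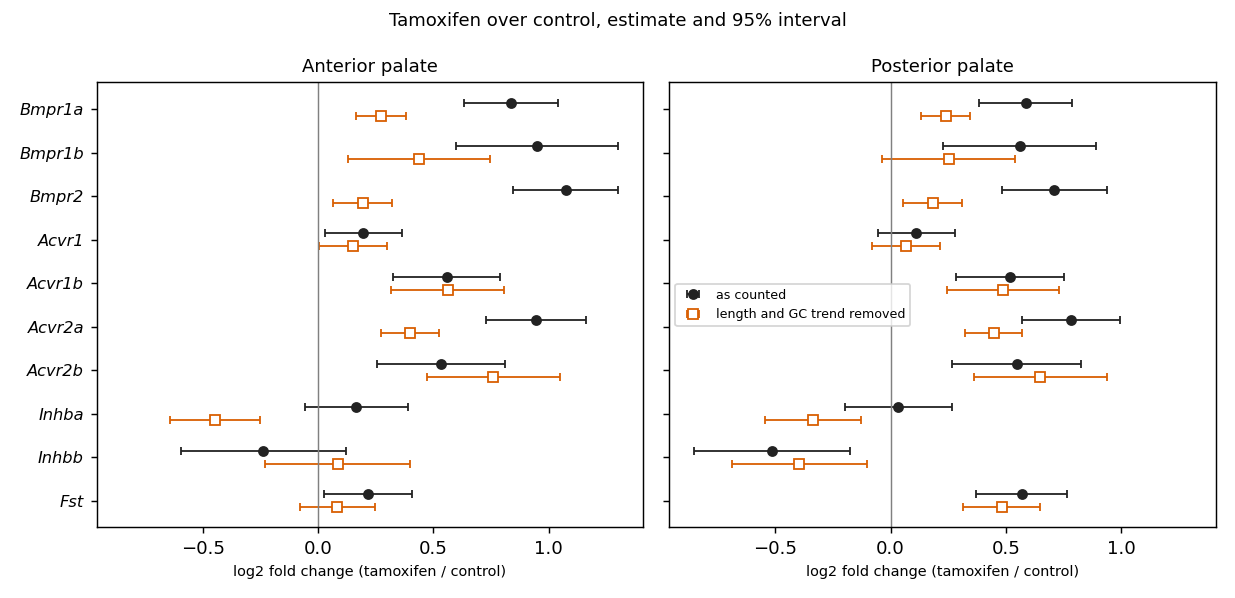
Log2 fold change of tamoxifen over control (points) with 95% interval (bars) for each gene in both parts of the palate, as counted and with the length and GC trend removed. Bmpr2 moves most between the fits, Acvr1b hardly moves, and Inhba falls below 0 once the trend is removed.

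Marker sums of other cell types, as counted, moved with treatment in part. Those of leukocytes and endothelium lay apart between treatments in both regions. Those of skeletal muscle and nerve lay apart in posterior palate only, and those of epithelium and cartilage overlapped in both regions. The leukocyte sum (5 markers) was 40.2 to 54.4 CPM in tamoxifen anterior libraries and 34.5 to 37.9 CPM in control anterior libraries, and 42.9 to 54.1 CPM in tamoxifen posterior libraries against 39.3 to 40.5 CPM in control posterior libraries. Single leukocyte markers were divided, with 3 called higher and 1 lower in anterior palate, and 2 higher and 0 lower in posterior palate. With the length and GC trend removed 2 were called higher in anterior palate and 0 in posterior palate. Of 8 epithelial markers 4 were called higher under tamoxifen in each part, and none lower. With the trend removed 2 were higher in anterior and 3 in posterior palate, and none lower. The epithelial sum was 816 to 1002 CPM in tamoxifen anterior libraries against 810 to 1032 CPM in control anterior libraries, and 486 to 644 CPM in tamoxifen posterior libraries against 438 to 487 CPM in control posterior libraries. The sum of 8 skeletal muscle markers was 7.85 to 16.3 CPM in tamoxifen anterior libraries against 11.6 to 31.3 CPM in control anterior libraries, with 0 called higher and 4 lower. It was 862 to 1167 CPM in tamoxifen posterior libraries against 701 to 796 CPM in control posterior libraries, with 1 higher and 0 lower. With the trend removed the muscle calls were 0 higher and 1 lower in anterior palate, and 3 higher and 0 lower in posterior palate. The nerve sum (7 markers) was 94.2 to 114 CPM in tamoxifen anterior libraries against 88.2 to 108 CPM in control anterior libraries, and 134 to 176 CPM in tamoxifen posterior libraries against 113 to 120 CPM in control posterior libraries. The endothelial sum (5 markers) was 432 to 469 CPM in tamoxifen anterior libraries against 381 to 421 CPM in control anterior libraries, and 481 to 524 CPM in tamoxifen posterior libraries against 425 to 454 CPM in control posterior libraries. Of these markers 3 were called higher and 1 lower in anterior palate, and 3 higher and 0 lower in posterior palate. With the trend removed these were 2 higher and 1 lower, and 2 higher and 0 lower. The palatal mesenchyme sum (6 markers) was 5586 to 6166 CPM in tamoxifen anterior libraries against 5056 to 5250 CPM in control anterior libraries. Of these markers 3 were called higher and 2 lower. In posterior libraries the sums overlapped, at 5556 to 7489 CPM under tamoxifen and 6241 to 6891 CPM in controls, with 2 higher and 1 lower. Of 4 erythroid markers 2 were tested. The part of these cell types in the receptor differences was not tested.

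The rest of the pathway was read from 9 lists of 76 genes, of which 71 were tested. In anterior palate 21 were called higher under tamoxifen and 17 lower, or 53.5%, beside 49.7% of all genes tested. In posterior palate 23 were higher and 2 lower, or 35.2%, beside 29%. Trend removal gave 29 calls in anterior and 20 in posterior palate. The receptors outside the 10 genes included Tgfbr1, a TGF-beta type I receptor, which rose by 0.75 in anterior palate (SE 0.11, adjusted p = 3.4e-05). Its posterior rise was 0.48 (SE 0.10, adjusted p = 0.0039). With the trend removed these were 0.20 (adjusted p = 0.01) and 0.14 (adjusted p = 0.079).

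Of 7 tested activin and TGF-beta ligands, 2 were higher and 3 lower in anterior palate, and 3 were higher and 3 lower with the trend removed. Mstn was among the falls in both fits but lay near the floor. Its mean was 0.048 CPM in control anterior palate and 0 under tamoxifen. Inha, the inhibin alpha subunit that pairs with beta subunits to form inhibin, an activin antagonist, averaged 16.2 ± 0.578 CPM in tamoxifen anterior palate and 38.4 ± 3.40 CPM in control anterior palate (SD, n = 3 each). It fell 2.37-fold (log2 -1.24, SE 0.11, adjusted p = 1.3e-06), and by -0.64 with the trend removed (adjusted p = 0.00035). In posterior palate it averaged 18.7 ± 2.10 CPM under tamoxifen and 29.1 ± 4.09 CPM in controls, a log2 change of -0.64 (adjusted p = 0.001) that lost its call with the trend removed (-0.32, adjusted p = 0.055). Gdf11, a ligand of Acvr2a and Acvr2b, rose in both fits and both parts, by 0.73 (adjusted p = 6.5e-06) in anterior and 0.35 (adjusted p = 0.0062) in posterior palate.

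Among 10 BMP ligands, 3 rose and 1 fell in anterior palate, and 4 rose and 0 fell in posterior palate. Trend removal gave 3 rises and 0 falls in anterior palate, and 2 rises and 0 falls in posterior palate. Bmp4, a ligand known from anterior palatal mesenchyme, showed no call between the regions here. The log2 difference of anterior over posterior palate was -0.14 under tamoxifen (adjusted p = 0.4) and 0.11 in controls (0.48). It fell by 0.39 under tamoxifen in anterior palate (SE 0.10, adjusted p = 0.0038), and its posterior change was -0.15 (adjusted p = 0.27). With the trend removed its anterior change was -0.16 (adjusted p = 0.12). Bmp2 showed no call in either part (0.14, adjusted p = 0.65, in anterior and 0.17, adjusted p = 0.62, in posterior palate). Of 12 extracellular antagonists 3 rose and 1 fell in anterior palate. Twsg1, which modulates BMP binding, rose by 0.59 (adjusted p = 1.2e-05) and by 0.33 with the trend removed (adjusted p = 0.00015), and Chrd, which encodes the BMP antagonist chordin, fell by 0.56 (adjusted p = 0.001).

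Below the receptors, 5 of 8 SMAD genes were higher and 2 lower in anterior palate, and 3 were higher and 0 lower in posterior palate. After trend removal the SMAD calls were 2 higher and 2 lower in anterior palate, and 1 higher and 1 lower in posterior palate. Smad4, the shared partner of the receptor-activated SMADs, rose by 0.38 in anterior palate (adjusted p = 0.00027). Smad2, which activin receptors phosphorylate, rose by 0.52 (adjusted p = 3.6e-05), but with the trend removed its change was -0.14 (adjusted p = 0.048). None of 7 BMP target genes was higher and 4 were lower in anterior palate, and in posterior palate none was called. After trend removal the target calls were 1 higher and 1 lower in anterior palate, and 2 higher and 0 lower in posterior palate. Msx2, a homeobox target of BMP signalling, fell by 0.82 in anterior palate (adjusted p = 0.0003) and by 0.79 with the trend removed. Id3 fell by 0.46 (adjusted p = 0.00012) but changed by 0.01 with the trend removed (adjusted p = 0.92), and Id1, a direct SMAD target, had a change of -0.19 (adjusted p = 0.082). With the trend removed Id1 turned direction and was called higher, by 0.25 in anterior (adjusted p = 0.0034) and 0.35 in posterior palate (adjusted p = 0.0011). Msx1, a homeobox gene of the anterior palate, averaged 218 ± 36.9 CPM in tamoxifen anterior palate and 493 ± 111 CPM in control anterior palate (SD, n = 3 each). It fell 2.26-fold (log2 -1.18, SE 0.32, adjusted p = 0.014), a call lost with the trend removed (-0.67, adjusted p = 0.11). The lists were described by these counts and not tested as lists.

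The genes whose level over the 12 libraries was most like each member, by Pearson correlation of log2 CPM, are given as a description, since all libraries share the treatment and region differences. For Inhba they were Shox2, Lbh and Zfp385c (r = 0.991, 0.991 and 0.990). For Fst they were Sh3rf2, Rassf10 and Tmem30b (r = 0.985, 0.981 and 0.976), and for Inhbb Jade2, Wwp2 and Bhlhe41 (r = 0.973, 0.968 and 0.962). For Bmpr1a they were Cdc73, Zhx1 and Tm9sf3 (r = 0.996, 0.994 and 0.993), for Bmpr2 Cttnbp2nl, Fnip1 and Atp13a3 (r = 0.997, 0.996 and 0.995), and for Bmpr1b Dpy19l1, Srl and Nadk2 (r = 0.977, 0.975 and 0.966). The closest genes to Acvr1 were Fbn1, Lama2 and Notch2 (r = 0.946, 0.927 and 0.921), to Acvr1b Tex2, Kcnj15 and Ermp1 (r = 0.9737, 0.9721 and 0.9715), to Acvr2a Pgap1, Nbea and Pja2 (r = 0.990, 0.989 and 0.988), and to Acvr2b Slc12a2, Plekha5 and Rsbn1 (r = 0.9445, 0.9419 and 0.9354).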

How the data were processed

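RNA-seq counts of 12 libraries of E13.5 palatal shelf were used. The deposited values are raw counts per gene symbol, without normalization. HISAT2, StringTie and build mm9 are named per the submitters' processing notes. Which program counted, on which annotation, with or without strand, and each version was not given in the sources used here. Even values made up 57.1 to 60.1% of counts from 1 to 100. Total counts were 39.4 M to 73.0 M per library, and SE and intervals come from replicate spread.

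With R 4.3.3 and edgeR 4.0.16, genes were filtered by group (15958 left) and scaled by TMM. All 12 libraries entered 1 robust quasi-likelihood fit with 8 residual degrees of freedom, from which 5 comparisons were taken: tamoxifen against control in each part, their difference, and anterior against posterior palate under each treatment. A call needs an adjusted p under 0.05, by Benjamini-Hochberg over the whole table. Levels carry no separate test, since the smallest exact p for 3 against 3 values is 0.1. Intervals are at 95% confidence.

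The longest GENCODE M21 transcript gave each gene's length and GC content (23348 symbols matched directly, 661 by an older symbol). For each library, natural splines with 4 degrees of freedom each were fitted to the genes whose mean log2 CPM exceeded 1, and the fitted surface entered the model as an offset. Alternatives were DESeq2 1.42.0, RLE size factors, no filter on low counts, the 6 libraries of a comparison alone, counts divided by 2, the replicate block, the trend removal with and without that block, and leaving out each library. The fits were tested on simulated data.

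All 10 members are reported. Of each of 9 pathway lists, up to 2 called genes per comparison with the smallest adjusted p could be named, and Bmp4, Bmp2, Id1 and Msx1 always. Likeness is the 3 tested genes of highest Pearson correlation. The members and the lists were chosen with earlier results of these data known. Some genes that met this rule are not reported here.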

Additional observations from a re-analysis of the deposited data

How the results depend on the processing

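Of 390 values of single genes under other settings than leaving out a library, 361 kept their direction and their side of the threshold. Removing the length and GC trend gave 5195 called genes in anterior palate (2557 higher, 2638 lower) against 7924, and 2864 in posterior palate (1243 higher, 1621 lower) against 4625. With the replicate block as well these were 5029 and 2722, and 1 gene for the difference between the effects, where DESeq2 called 174. Directions turned with the trend removed for Inhba (-0.45 anterior, -0.34 posterior) and Inhbb in anterior palate (0.084), for Bmpr2 between regions in controls (0.12), and for the difference between effects of Acvr2a (-0.050), Acvr2b (0.11) and Inhba (-0.11). With the block added they were -0.45, -0.34, 0.071, 0.12, -0.050, 0.11 and -0.11. The cause was not tested. Between regions the split of called genes became 2208 higher and 1764 lower in anterior palate under tamoxifen, against 1213 and 1633, and 2310 and 2009 in controls, against 1634 and 2083.

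The pairing was checked on log2 levels after each group's mean was taken off for every gene. On this scale same-numbered libraries correlated between -0.0582 and 0.1471, and 2 of 18 pairs passed 0.1. Both joined tamoxifen anterior to tamoxifen posterior palate (0.1471 for replicate 1 and 0.1374 for replicate 3, against -0.0146 for replicate 2). Pairs of unlike number passed it as well. Control anterior replicate 1 with tamoxifen anterior replicate 2 had 0.1293, and tamoxifen anterior replicate 3 with tamoxifen posterior replicate 2 had 0.1184. With 3 libraries per group, such correlations cannot decide whether the numbers of the sample titles pair the samples. The file headers carry other numbers, which were not used. The replicate block alone called 6 members in anterior palate (Acvr1 lost, adjusted p = 0.0564, as with the 6 libraries alone, 0.0683, or counts divided by 2, 0.0508). Leaving out each library in turn gave 6 to 8 members called in anterior and 6 to 8 in posterior palate, 4 in every case between regions under tamoxifen and 4 to 6 in controls. It gave 0 members in every case for the difference between effects. All genes called ranged, in the same order, from 6553 to 7961, 2714 to 5485, 2090 to 3089, 2483 to 4342 and 0 to 6. The posterior count was lowest without control posterior replicate 1 (2714), then control posterior replicate 3 (2830) and tamoxifen posterior replicate 1 (3045). Uncalled values that turned ranged from -0.0099 to 0.096 for Inhba in posterior palate, -0.12 to 0.030 for Bmpr1a between regions under tamoxifen, and, for the difference between effects, -0.079 to 0.13 for Acvr1b and -0.19 to 0.11 for Acvr2b. A lone or reduced group is assumed to vary like the others.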

Other observations

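Tamoxifen anterior replicate 2 held the highest value of its group for Bmpr1a, Bmpr1b, Bmpr2, Acvr2a, Acvr2b and Inhba, 6 of the 10 genes. Replicate 1 held it for the other 4. The log2 levels of all genes, relative to each gene's mean over the 12 libraries, had a Spearman correlation with GC content of -0.50 in replicate 2, against -0.30 in replicate 1 and -0.28 in replicate 3. With transcript length the correlation was 0.28 in replicate 2, 0.33 in replicate 1 and 0.35 in replicate 3. In the control anterior libraries it was -0.39, -0.40 and -0.50 with length. These are correlations across 15839 genes within 1 library, and genes are not independent replicates.

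Tgfb2, a TGF-beta ligand, was lower in anterior than in posterior palate in both treatments, by a log2 difference of -1.12 under tamoxifen (SE 0.073, adjusted p = 9.3e-09) and -1.27 in controls (SE 0.074, adjusted p = 3.7e-09).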
